A study of Mus musculus with 21 samples.

Results

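The mTOR kinase works in a pair of complexes, and the genes described here encode their subunits, *Mtor*, *Rictor*, *Rptor*, *Mlst8* and *Deptor*, together with upstream regulators, *Tsc1*, *Tsc2*, *Rheb* and *Ddit4*, and a downstream target, *Eif4ebp1*. They were picked by gene name, 10 of the 53801 genes in the count table, and all 10 were among the 20256 genes with at least 10 counts in total that were tested. RNA was measured by poly-A RNA-seq in IgA+ plasma cells (IgA+ PCs), the antibody-secreting cells of the gut wall, sorted as CD138+ IgA+ cells from the small intestinal lamina propria. All 21 mice were C57BL/6, untreated, and carried floxed *Arntl*, the gene for the clock activator Bmal1. The 12 control mice (Mb1Cre-/- x Arntlfl/fl) had no Cre, and the 9 knockout mice (Mb1Cre+/- x Arntlfl/fl) had Cre in the *Mb1* locus, which is *Cd79a*, a gene active throughout the B cell lineage, so that deletion is not restricted to PCs. Ages are not given in the labels. Mice were taken at zeitgeber time 0 (ZT0, lights on) or ZT12 (lights off), with 6 control mice at each time, 4 knockout mice at ZT0 and 5 at ZT12. Between 14471018 and 22785835 reads per library were counted on genes.

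mTOR complex 1, built on Raptor (*Rptor*), promotes protein synthesis and restrains autophagy when amino acids and growth factors are plentiful. mTOR complex 2, built on Rictor, phosphorylates Akt and related kinases. Secreted antibody places a high demand on protein synthesis in PCs, and mTOR complex 1 is known to be needed for the formation of antibody-secreting cells and for their high rate of synthesis.

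The labels were checked first on the deleted gene and on the locus that carries Cre. *Arntl* was 7.8 ± 0.527 CPM (counts relative to library size, scaled with TMM factors, with the SD, n = 6) in control and 4.87 ± 1.08 (n = 4) in knockout mice at ZT0, a difference of -0.69 in log2 CPM that was larger than the spread between mice (exact permutation test, two-sided, p = 0.00952, the smallest this design allows). At ZT12 it was 4.54 ± 0.547 (n = 6) and 3.89 ± 0.703 (n = 5), and the groups overlapped (exact permutation test, two-sided, p = 0.108, or 0.019 without knockout ZT12 replicate 2). Reads of *Arntl* remained in every knockout mouse, and counts per gene do not show whether they came from outside the floxed part. *Cd79a* was higher in each of the 12 control mice (386 to 586 CPM) than in any of the 9 knockout mice (163 to 276 CPM). This bears on the labels because, in 8 of the 9 samples titled as knockout, the genotype entry reads as that of the controls, and the groups used here are those of the titles.

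PC markers were abundant in all groups. *Igha*, the heavy chain constant gene of IgA, was at 276000 ± 21300 CPM in control mice at ZT0 (SD, n = 6), *Xbp1*, a transcription factor of secretory cells, at 2030 ± 90.3 CPM and *Sdc1*, which encodes CD138, at 630 ± 78.6 CPM. Markers of other B cells were low, with 6 genes that summed to 5.77 ± 1.54 CPM in the same mice and *Ms4a1* as the most abundant.

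Per length of exon, *Ddit4* was the most abundant of the 10 genes and *Deptor* the least. In TMM-normalised CPM per kilobase, averaged over the 21 mice, the level of *Ddit4* was 8.65 ± 1.6 (SD), followed by *Rheb* at 6.58 ± 0.661, *Eif4ebp1* at 4.99 ± 1.95, *Mtor* at 3.92 ± 0.805 and *Tsc2* at 3.3 ± 0.441. *Rptor* (2.35 ± 0.431), *Tsc1* (2.33 ± 0.432) and *Rictor* (2.06 ± 0.426) followed, above *Mlst8* (1.59 ± 0.296) and *Deptor* (0.29 ± 0.1). The median of the 14525 protein coding genes tested was 1.57, so *Mlst8* stood at percentile 50.3 of these genes, *Ddit4* at 83.8 and *Deptor* at 28.6. *Rptor* and *Tsc1* did not separate, since *Rptor* was the higher of the pair in 13 of 21 mice, while *Tsc1* was above *Rictor* in 20 of 21, and *Eif4ebp1* was above *Mtor* in 15 of 21, whereas *Tsc2* was above *Rptor* and *Mlst8* above *Deptor* in all 21.

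**Figure D1:**
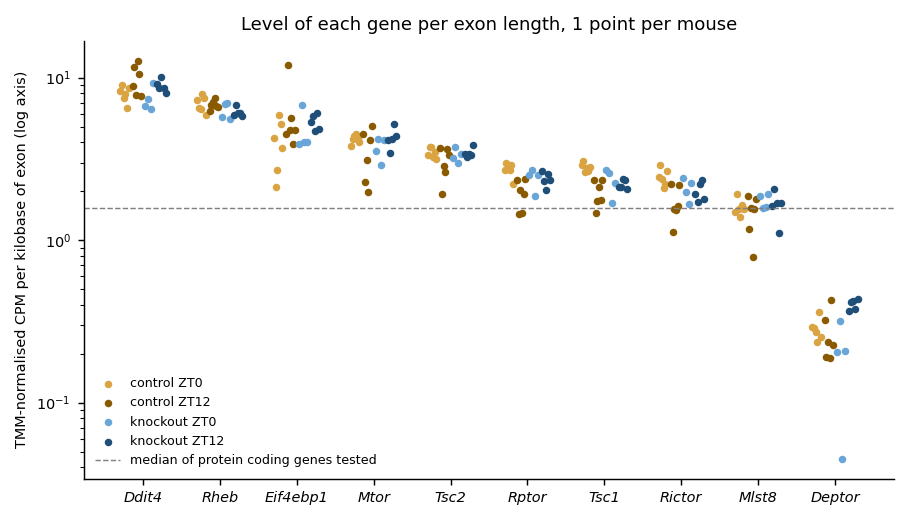
Level of each of the 10 genes as TMM-normalised CPM per kilobase of exon (log axis), 1 point per mouse, coloured by genotype and time, with the genes in order of their mean over 21 mice and a dashed line at the median of protein coding genes tested (1.57). *Deptor* sits below the line in all mice, and 1 knockout mouse at ZT0 sits far below the others.

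All 10 genes were located on GRCm38. *Rictor* (chromosome 15, 6708379 to 6800401, plus strand) and *Tsc1* (chromosome 2, 28641228 to 28691167, plus strand) overlapped no other annotated gene. *Rptor* (chromosome 11, 119602905 to 119899576, plus strand) shared 84 exonic bases with the antisense gene *Rptoros*, *Mlst8* 997 with *Bricd5*, *Deptor* 303 with *Gm9920* and *Tsc2* 693 with *Pkd1*, each on the opposite strand. Whether reads were counted by strand is not given in the sources used here, so the counts of these 4 genes are uncertain by at most the reads of the shared bases. The deposited model of *Mlst8* has 3366 bases of exon, against 4435 in GENCODE M21, on which the overlaps were found. Its shared bases may therefore not have been counted, in part or in full. Exon lengths ran from 1755 bases for *Ddit4* to 16930 for *Rictor*, and 7 of the 10 genes were over 4000 bases long.

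The promoters of the 3 genes that passed the test below are shown because these genes moved together. Promoter windows of 250 bases before to 50 after the RefSeq start were found for 8 of the 10 genes, all except *Deptor* and *Eif4ebp1*. Of each of the 3 windows, only the bases before the gene model of the deposited table are printed (GRCm38, plus strand, 5′ to 3′, CG pairs in capitals).
Rictor chr15:6708131-6708378: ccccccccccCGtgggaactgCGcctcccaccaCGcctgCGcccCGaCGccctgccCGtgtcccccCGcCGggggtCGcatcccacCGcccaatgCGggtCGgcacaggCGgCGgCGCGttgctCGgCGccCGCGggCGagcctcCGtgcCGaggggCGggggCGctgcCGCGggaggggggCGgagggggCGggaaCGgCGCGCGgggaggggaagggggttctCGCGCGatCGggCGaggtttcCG
Rptor chr11:119602655-119602904: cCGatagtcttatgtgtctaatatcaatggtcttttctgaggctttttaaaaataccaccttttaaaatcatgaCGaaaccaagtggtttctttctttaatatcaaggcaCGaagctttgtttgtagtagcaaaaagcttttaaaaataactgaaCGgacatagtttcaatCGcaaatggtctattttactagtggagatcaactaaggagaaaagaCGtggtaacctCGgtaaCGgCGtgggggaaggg
Tsc1 chr2:28640983-28641227: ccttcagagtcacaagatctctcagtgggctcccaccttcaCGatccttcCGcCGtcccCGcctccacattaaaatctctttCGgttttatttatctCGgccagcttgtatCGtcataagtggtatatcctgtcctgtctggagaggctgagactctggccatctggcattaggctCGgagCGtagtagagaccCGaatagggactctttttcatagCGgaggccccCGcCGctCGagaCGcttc
The 3 promoters had little in common in base composition. GC content and CG pairs were taken over the whole windows, which include bases not printed above. The window of *Rictor* had a GC content of 78.3% and 47 CG pairs, that of *Tsc1* 57.3% and 20, and that of *Rptor* 41.7% and 13. The medians over all promoter windows were 52.7% and 7. The E-box CACGTG, the sequence bound by Clock and Bmal1, was found on either strand in none of these 3 windows. It was in 7.15% of 32851 windows of the same length and in 1 of the 8 windows of the mTOR genes, that of *Rheb*, where its first base lies 96 bases before the RefSeq start but 167 bases inside the gene model of the deposited table, whose start is farther upstream (minus strand, E-box in capitals):
Rheb chr5:24842440-24842469: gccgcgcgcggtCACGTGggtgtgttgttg
The D-box TTATGNAA (3.38% of all windows), the nuclear receptor core sequence AGGTCA (16.3%) and the palindromic glucocorticoid response element (0.475%) were in none of the 8 windows on either strand. An absent match says only that these letters are not in these windows.

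The first comparison asked whether the genes differed between ZT12 and ZT0 in control mice. Levels of *Tsc1*, *Rptor* and *Rictor* fell, each to about the same extent, whereas *Mtor* itself, its other subunits, *Tsc2* and *Rheb* did not pass the test, nor did *Ddit4* and *Eif4ebp1*, whose estimates were above 0. Thus 3 of 10 genes were called, all lower, at an adjusted p under 0.05 in edgeR's quasi-likelihood test, where 1.73% of all genes tested were called (0.78% lower and 0.948% higher). With each of 21 libraries left out in turn *Rictor* was called in 4 fits, *Rptor* in 12 and *Tsc1* in 16, and none of the 10 genes was called without control ZT0 replicate 1 or 2 or control ZT12 replicate 2, 3 or 4. DESeq2 called the same 3 genes, against 8.5% of the genes it could adjust, and at an unadjusted p under 0.05 in edgeR's quasi-likelihood test 5 of 10 passed, the 3 genes with *Eif4ebp1* and *Ddit4*, against 18.1% of all genes. As the genes were picked with results of these same mice known, their count is not independent of that choice. The median log2 fold change of the 10 genes was -0.16 and that of all genes 0.01. In bulk RNA, fewer cells of a type and less RNA per cell cannot be told apart.

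**Figure D2:**
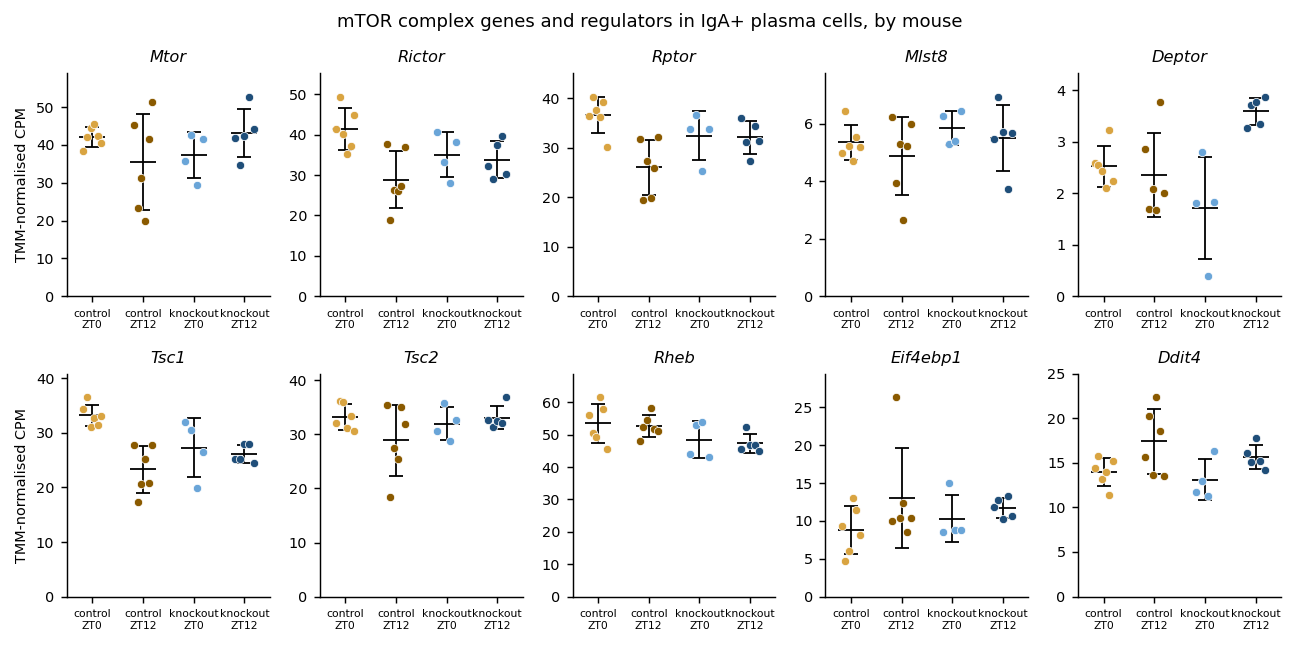
TMM-normalised CPM of the 10 genes in the 4 groups, 1 point per mouse (axes start at 0; horizontal lines are means, bars SD; 6, 6, 4 and 5 mice from left to right in each panel). *Tsc1* of control mice does not overlap between ZT0 (31.1 to 36.5) and ZT12 (17.4 to 27.8), and *Deptor* of knockout mice does not overlap between ZT0 (0.4 to 2.81) and ZT12 (3.27 to 3.87).

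*Rictor*, the defining subunit of mTOR complex 2, had a lowest, median and highest level of 35.3, 40.9 and 49.3 CPM in control mice at ZT0 and of 19.0, 26.9 and 37.6 CPM at ZT12. The ranges overlapped through replicates 1 and 6 of ZT12, at 37.6 and 36.9 CPM, and the other 4 mice of ZT12 lay below every mouse of ZT0. The log2 fold change was -0.52 with a standard error (SE) of 0.13 (adjusted p = 0.0465, edgeR's quasi-likelihood test). *Rptor*, the subunit that recruits substrates to complex 1, had a lowest, median and highest level of 30.0, 36.9 and 40.2 CPM at ZT0 and of 19.4, 26.6 and 32.1 CPM at ZT12. Here too replicates 1 and 6 were the highest of ZT12, and they exceeded only the lowest mouse of ZT0. The log2 fold change of *Rptor* was -0.49 (SE 0.12, adjusted p = 0.0408, edgeR's quasi-likelihood test).

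*Tsc1* encodes hamartin, which holds the TSC complex together, and *Tsc2* encodes tuberin, whose GTPase-activating function switches Rheb off and thereby restrains complex 1. *Tsc1* had a lowest, median and highest level of 31.1, 33.0 and 36.5 CPM at ZT0 and of 17.4, 23.1 and 27.8 CPM at ZT12 in control mice. It was the only one of the 10 genes whose control groups did not overlap, against 1.6% of all genes tested, and it had a log2 fold change of -0.51 (SE 0.11, adjusted p = 0.0256, edgeR's quasi-likelihood test). *Tsc2* had a lowest, median and highest level of 30.6, 32.8 and 36.2 CPM at ZT0 and of 18.4, 29.7 and 35.4 CPM at ZT12. Its ZT12 mice spread over a wider range than its ZT0 mice, and its log2 fold change of -0.20 (SE 0.11) missed the threshold (adjusted p = 0.365, edgeR's quasi-likelihood test) and was -0.10 without replicate 2 of ZT12. *Rheb*, the GTPase that activates complex 1, had group means of 53.5 ± 6.0 CPM at ZT0 and 52.7 ± 3.4 CPM at ZT12 (SD, n = 6 each), a log2 fold change of -0.02 (SE 0.09).

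*Mtor*, the kinase shared by both complexes, was at 38.3, 42.2 and 45.5 CPM (lowest, median and highest) in control mice at ZT0 and at 20.0, 36.5 and 51.3 CPM at ZT12. The ZT12 mice lay on both sides of the ZT0 range, with replicates 2, 3 and 4 below it and replicate 6 above it. The SD of *Mtor* was 12.6 CPM at ZT12 against 2.61 at ZT0, and the log2 fold change was -0.25 (SE 0.17), or -0.13 without replicate 4 and -0.38 without replicate 6 of ZT12. *Mlst8*, a subunit of both complexes that stabilises the kinase domain, was at 5.36 ± 0.607 CPM at ZT0 and 4.89 ± 1.36 at ZT12 (SD, n = 6 each), a log2 fold change of -0.13 (SE 0.18), or -0.0027 without replicate 4 of ZT12. *Deptor*, an inhibitory subunit of both complexes, was at 2.52 ± 0.39 and 2.35 ± 0.82 CPM, a log2 fold change of -0.10 (SE 0.29) that ran from -0.28 (without ZT12 replicate 5) to -0.016 (without ZT0 replicate 5) with 1 library left out. These 3 genes had overlapping groups and did not pass the test.

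*Ddit4* encodes Redd1, a stress-induced protein that acts through the TSC complex to inhibit complex 1, and *Eif4ebp1* encodes 4E-BP1, a repressor of cap-dependent translation that complex 1 phosphorylates. *Ddit4* was at 11.4, 14.2 and 15.8 CPM (lowest, median and highest) in control mice at ZT0 and at 13.6, 17.1 and 22.3 CPM at ZT12. Replicates 2, 4 and 5 of ZT12 exceeded every mouse of ZT0, and the other 3 fell within the ZT0 range. In the libraries of replicates 2, 4 and 5, immunoglobulin genes took the largest shares of counts of the group (63.6%, 59.5% and 59.1%). As CPM of all counts, without TMM factors, only replicate 4 (19.14) was above the highest mouse of ZT0 (17.42). The log2 fold change was 0.31 (SE 0.13, adjusted p = 0.199, edgeR's quasi-likelihood test). *Eif4ebp1* was at 4.66, 8.72 and 13.0 CPM at ZT0 and at 8.57, 10.4 and 26.3 CPM at ZT12, with 1 ZT12 mouse, replicate 2, above all others. Its log2 fold change was 0.57 (SE 0.27, adjusted p = 0.26, edgeR's quasi-likelihood test), and without that mouse 0.24.

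The libraries of control mice at ZT12 differed from the rest in composition, and the 3 called genes moved with it. Immunoglobulin genes took 52.8% ± 0.721 of counts in control mice at ZT0 and 57.4% ± 3.99 at ZT12 (SD, n = 6 each), a difference of 4.56 percentage points (exact permutation test, two-sided, p = 0.00216, the smallest this design allows). The share was 63.6%, 59.5% and 59.1% in replicates 2, 4 and 5 of ZT12 and at most 55.0% in replicates 1, 3 and 6. *Rictor*, *Rptor* and *Tsc1* were low in replicates 2, 4 and 5, and also in replicate 3, whose share was 53.3%. Among knockout mice, replicate 3 of ZT0 had a share of 59.4%, and it was the lowest of its group for all 3 genes (28.1 CPM of *Rictor*, 25.2 of *Rptor* and 19.9 of *Tsc1*). Since the share differed between the control groups, library composition and time of day cannot be told apart in full. All 3 calls were lost with the share as a covariate (log2 fold changes of -0.25 for *Rictor*, -0.21 for *Rptor* and -0.29 for *Tsc1*, adjusted p of 0.657, 0.638 and 0.528, edgeR's quasi-likelihood test) and without the 4 libraries of a share over 59% (-0.30, -0.27 and -0.38, adjusted p of 0.472, 0.417 and 0.167). They were also lost with the level of epithelial markers as a covariate (log2 fold changes of -0.48, -0.45 and -0.46, adjusted p of 0.139, 0.13 and 0.0971, edgeR's quasi-likelihood test) and in a fit to the control mice alone (-0.52, -0.49 and -0.51, adjusted p of 0.101, 0.0857 and 0.0641), where the estimates stayed close to those of the fit to all mice. All 34 alternative fits gave each gene an estimate below 0.

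**Figure D3:**
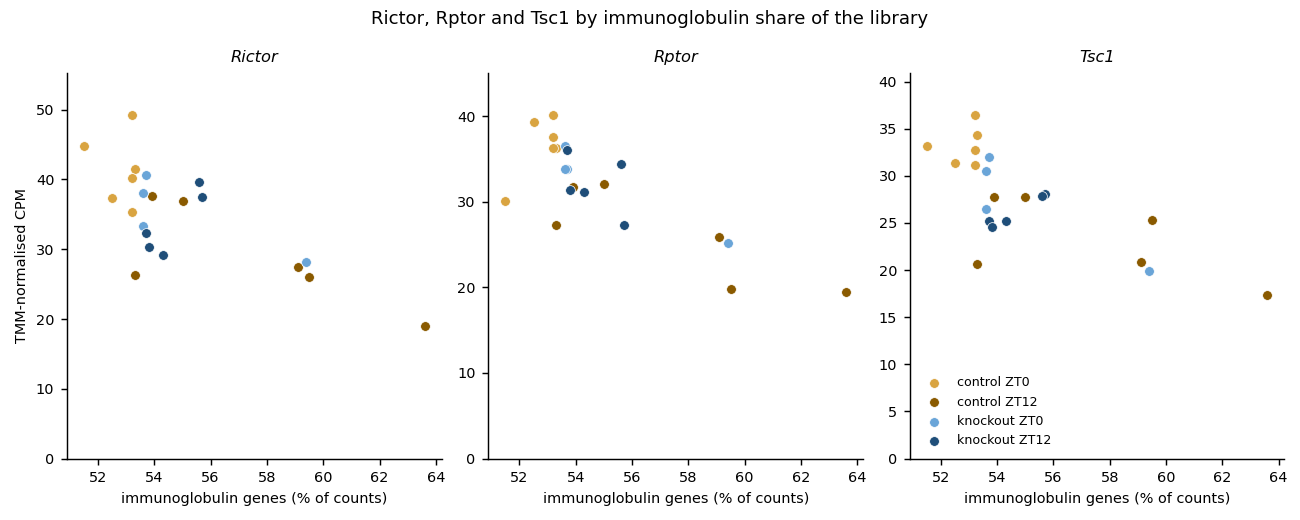
TMM-normalised CPM of *Rictor*, *Rptor* and *Tsc1* (axes start at 0) against the share of counts on immunoglobulin genes, 1 point per mouse, coloured by group. The 4 libraries with a share over 59% are 3 control mice at ZT12 and 1 knockout mouse at ZT0, and each lies below every control mouse of ZT0 in each panel.

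Long genes as a class were lower in the same libraries. Of genes with over 4000 bases of exon, 1.56% were called lower and 0.551% higher at ZT12 in control mice, against 0.417% lower and 1.04% higher among genes of 2000 to 4000 bases and 0.179% lower and 1.33% higher among genes under 2000 bases, with median log2 fold changes of -0.07, 0.05 and 0.13 in this order. *Rictor*, *Rptor* and *Tsc1* have 16930, 13471 and 11833 bases of exon, and *Mtor*, *Tsc2*, *Rheb* and *Deptor*, also over 4000, were not called. A length index, the median log2 deviation of genes over 4000 bases minus that of genes under 2000, was 0.0663 to 0.255 in control mice at ZT0 and -0.707, -0.395 and -0.226 in replicates 2, 4 and 5 of ZT12. Replicates 1 and 6 of ZT12, in which *Rictor*, *Rptor* and *Tsc1* were highest, had values of 0.176 and 0.189, and replicate 3 had -0.141. With the trend on length removed from each library the 3 calls held, with smaller estimates of -0.34 for *Rictor*, -0.33 for *Rptor* and -0.36 for *Tsc1* (adjusted p of 0.0386, 0.0446 and 0.0286, edgeR's quasi-likelihood test).

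**Figure D4:**
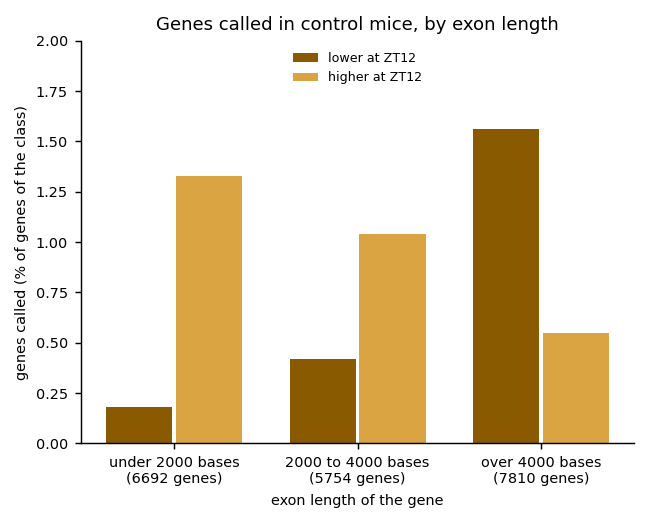
Share of genes called at ZT12 against ZT0 in control mice (% of the genes of each class, axis starts at 0), lower and higher, for genes with under 2000, 2000 to 4000 and over 4000 bases of exon. Lower calls rise with length from 0.179% to 1.56% and higher calls fall from 1.33% to 0.551%.

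Of the 8 PC markers none was called in control mice by edgeR's quasi-likelihood test, with 4 at an unadjusted p under 0.05 (18.1% of all genes). DESeq2 called *Igha*, *Prdm1* and *Xbp1* of the 8, against 8.5% of the genes it could adjust. *Igha* was at 354000 ± 90800 CPM and *Xbp1* at 2470 ± 383 CPM at ZT12 (SD, n = 6), against the ZT0 levels given above. The part of these markers in the 3 calls was not tested beyond the fits with the immunoglobulin share. Markers of other cells were also present. None of the 9 epithelial, 7 T cell, 7 myeloid and 6 other B cell markers tested was called in control mice. Of 5 stromal and endothelial markers 1 was called lower (0.78% of all genes), *Pecam1*, named here after its values were seen. At an unadjusted p under 0.05 in edgeR's quasi-likelihood test 6 epithelial, 3 stromal and endothelial, 1 T cell, 1 myeloid and 1 other B cell marker and 2 of 8 genes of the response to tissue dissociation passed, against 18.1% of all genes. Of these lists DESeq2 called *Apoa1* and *Epcam* of the epithelial one and *Pecam1*, against 8.5% of the genes it could adjust. The stromal and endothelial markers summed to 42.9 ± 2.11 CPM at ZT0 and 30.4 ± 5.32 at ZT12 (SD, n = 6 each), of which *Pecam1* gave 39.4 and 27.6, the T cell markers, with *Cd4* the most abundant, to 16.4 ± 2.54 and 16.1 ± 3.49, and the myeloid markers, with *Csf1r* the most abundant, to 42.1 ± 13.1 and 47.1 ± 24.6. Epithelial markers, with *Epcam* the most abundant and *Muc2* below the count filter, summed to 75.8 ± 37.6 CPM at ZT0 and 216 ± 267 CPM at ZT12 (SD, n = 6 each), the latter led by replicate 5 with 755 CPM. Genes of the response to tissue dissociation, led by *Fosb*, summed to 4090 ± 1320 and 5650 ± 2040 CPM in control mice, and in knockout mice to 5110 ± 2500 CPM at ZT0 and 3490 ± 957 at ZT12 (SD, n = 4 and 5), an order opposite to that in control mice. None of the 8 was called by edgeR's quasi-likelihood test or by DESeq2, while 6 of 8 had an unadjusted p under 0.05 in each of 3 comparisons, ZT12 against ZT0 in knockout mice (8.01% of all genes), the interaction (10.8%), and knockout against control mice at ZT12 (8.83%). The part of dissociation genes in the differences of the mTOR genes was not tested.

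In knockout mice the same question, ZT12 against ZT0, gave no called gene among the 10, and 0% of all genes tested were called. At an unadjusted p under 0.05 in edgeR's quasi-likelihood test 1 of 10 passed, *Deptor*, against 8.01% of all genes, and DESeq2 called 0 of 10, against 0.319% of the 14725 genes it could adjust. *Rictor* was at 40.6, 33.4, 28.1 and 38.1 CPM at ZT0 and at 32.4, 29.1, 37.5, 39.7 and 30.3 CPM at ZT12 in replicates 1 to 4 and 1 to 5. The groups covered nearly the same range, and the log2 fold change was -0.05 (SE 0.16). *Rptor* was at 33.8, 36.5, 25.2 and 33.8 CPM at ZT0 and at 36.1, 31.2, 27.2, 34.4 and 31.4 CPM at ZT12. These ranges again overlapped almost whole, with a log2 fold change of -0.01 (SE 0.14). *Tsc1* was at 32.0, 30.5, 19.9 and 26.5 CPM at ZT0 and at 25.2, 25.3, 28.0, 27.9 and 24.5 CPM at ZT12, a log2 fold change of -0.06 (SE 0.13).

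*Deptor* had the largest estimate of the 10 genes in knockout mice. It was at 1.81, 2.81, 0.4 and 1.84 CPM at ZT0 and at 3.27, 3.71, 3.77, 3.35 and 3.87 CPM at ZT12. All 5 mice of ZT12 lay above all 4 of ZT0, a separation that 2.63% of all genes tested showed in either direction in this comparison. The log2 fold change was 1.06 (SE 0.34) and missed the threshold after adjustment (adjusted p = 0.515, edgeR's quasi-likelihood test). Counts were low, from 6 to 66 per library over all mice, and the 6 counts of ZT0 replicate 3 give 95% Wilson limits of 0.167 and 0.793 CPM of all counts, for counting error only. Without that mouse the log2 fold change was 0.74. The stress-induced inhibitor *Ddit4* was at 11.8, 12.9, 11.3 and 16.4 CPM at ZT0 and at 16.1, 15.2, 17.8, 15.3 and 14.2 CPM at ZT12. Its estimate, 0.26 (SE 0.15, adjusted p = 0.66, edgeR's quasi-likelihood test), had the sign and about the size of that in control mice.

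The other 5 genes stayed within overlapping ranges in knockout mice. *Mtor* was at 37.4 ± 6.03 CPM at ZT0 and 43.2 ± 6.42 at ZT12 (SD, n = 4 and 5), a log2 fold change of 0.21 (SE 0.20), or 0.11 without replicate 3 of ZT0. *Mlst8* had a log2 fold change of -0.09 (SE 0.21), *Tsc2* of 0.05 (SE 0.13), *Rheb* of -0.04 (SE 0.10) and *Eif4ebp1* of 0.19 (SE 0.31), which ran from 0.11 (without ZT0 replicate 1) to 0.41 (without ZT0 replicate 2) with 1 library left out. The immunoglobulin share of counts was 55.1% ± 2.91 at ZT0 and 54.6% ± 0.953 at ZT12 in these mice (SD, n = 4 and 5; exact permutation test, two-sided, p = 0.889), and without replicate 3 of ZT0 it was 1.00 percentage points higher at ZT12 (exact permutation test, two-sided, p = 0.0357).

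**Figure D5:**
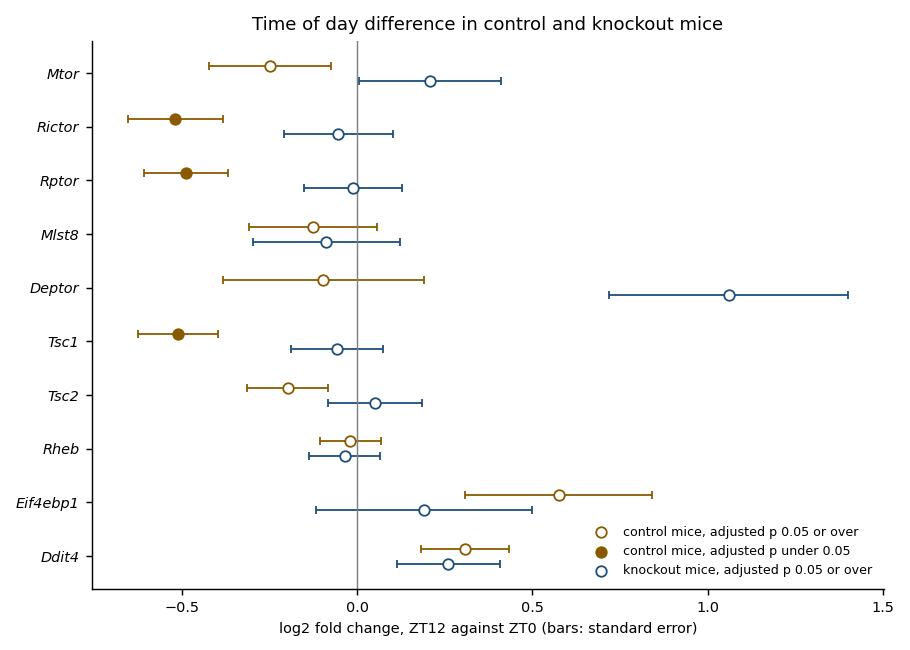
Log2 fold change of each of the 10 genes at ZT12 against ZT0 in control mice and in knockout mice, with the standard error as a bar. Filled points had an adjusted p under 0.05, which holds for *Rictor* (-0.52), *Rptor* (-0.49) and *Tsc1* (-0.51) in control mice.

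Whether the time of day difference itself differed between the genotypes was tested as the interaction of genotype and time. None of the 10 genes was called by edgeR's quasi-likelihood test, nor was any gene of the whole table (0%), so the loss of the 3 calls in knockout mice is not shown to be a difference between genotypes. At an unadjusted p under 0.05 in edgeR's quasi-likelihood test 4 of 10 genes passed, against 10.8% of all genes, and DESeq2 called 0 of the 10, against 0.0279% of the genes it could adjust. The difference of log2 fold changes, knockout minus control, was 0.47 (SE 0.21) for *Rictor*, 0.48 (SE 0.18) for *Rptor*, 0.45 (SE 0.17) for *Tsc1* and 1.16 (SE 0.44) for *Deptor*, with adjusted p of 0.451 for *Rictor* and 0.442 for the other 3. For *Ddit4* it was -0.05 (SE 0.19) and for *Rheb* -0.02 (SE 0.13). Interaction estimates share their control mice with the comparison of ZT12 and ZT0 in control mice, so that a low level at ZT12 in control mice enters both.

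The remaining comparisons set knockout against control mice at each time, and DESeq2, like edgeR's quasi-likelihood test, called none of the 10 genes in either (DESeq2 called 0.0247% of the genes it could adjust at ZT0 and 0.0574% at ZT12). At ZT0, 0 of 10 genes were called, against 0.00987% of all genes, and in none did the groups separate, as they did in 0.977% of all genes. At an unadjusted p under 0.05 in edgeR's quasi-likelihood test only *Tsc1* passed (4.9% of all genes did), with 27.3 ± 5.41 CPM in knockout (SD, n = 4) and 33.2 ± 2.01 in control mice (n = 6) and a log2 fold change of -0.28 (SE 0.13, adjusted p = 0.926). *Deptor* had the estimate farthest from 0, -0.55 (SE 0.33). Without knockout ZT0 replicate 3 the estimates were -0.16 for *Tsc1* and -0.23 for *Deptor*, and without replicate 2 that of *Deptor* was -0.87. At ZT12, 0 of 10 genes were called, against 0.0148% of all genes, and again none had groups that separated (0.38% of all genes). There *Rptor* alone passed at an unadjusted p under 0.05 in edgeR's quasi-likelihood test (8.83% of all genes did), with 32.1 ± 3.38 CPM in knockout (SD, n = 5) and 26.0 ± 5.52 in control mice (n = 6) and a log2 fold change of 0.30 (SE 0.13, adjusted p = 0.562). *Deptor* again had the estimate farthest from 0, here with the opposite sign to that at ZT0, 0.61 (SE 0.30, adjusted p = 0.562, edgeR's quasi-likelihood test).

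The rest of the pathway was followed in 7 lists with 92 other genes, of which 90 were tested (*Castor1* and *Castor2* were not). In control mice 5 of the 90 were called higher and 1 lower at ZT12 by edgeR's quasi-likelihood test, against 0.948% and 0.78% of all genes, and their median log2 fold change was 0.00. With the immunoglobulin share as a covariate none of these 6 was called (adjusted p from 0.336 to 0.663, edgeR's quasi-likelihood test), with log2 fold changes of -0.56 for *Lpin1*, 0.34 for *Rps6*, 0.24 for *Slc38a9*, 0.75 for *Fkbp5*, 1.85 for *Vegfa* and 0.21 for *Shmt2*. None was called without the 4 libraries of high share (adjusted p from 0.115 to 0.497, edgeR's quasi-likelihood test), and with each of 21 libraries left out *Lpin1* was called in 21 fits, *Rps6* in 18, *Slc38a9* in 13, *Fkbp5* in 10, *Vegfa* in 8 and *Shmt2* in 6. Among 7 partners and assembly factors of the complexes edgeR's quasi-likelihood test called none in any comparison, with at most 1 at an unadjusted p under 0.05 (18.1% of all genes in control mice), and DESeq2 called *Prr5* in control mice (8.5% of all genes it could adjust). *Akt1s1*, which encodes the complex 1 inhibitor Pras40, had a log2 fold change of 0.08 (SE 0.10) in control mice, *Mapkap1*, which encodes the complex 2 subunit Sin1, -0.17 (SE 0.10), *Prr5*, another complex 2 subunit, 0.27 (SE 0.09, adjusted p = 0.141, edgeR's quasi-likelihood test) and *Telo2*, a factor in assembly of the kinase, -0.02 (SE 0.12). The estimates of these complex 2 partners of *Rictor* thus differed in sign.

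Of 27 genes of amino acid sensing at the lysosome, 1 was called in control mice (1.73% of all genes). At an unadjusted p under 0.05 in edgeR's quasi-likelihood test 4 passed there, against 18.1% of all genes. *Slc38a9*, a lysosomal arginine sensor, rose from 16.8 ± 1.86 to 22.2 ± 2.95 CPM in control mice (SD, n = 6 each), with a log2 fold change of 0.40 (SE 0.10, adjusted p = 0.0403, edgeR's quasi-likelihood test). Its exons span 16704 bases. Its range was 14.8 to 19.5 CPM at ZT0 and 19.1 to 26.3 CPM at ZT12, an overlap at the edge. In knockout mice it was at 20.9 ± 1.77 CPM at ZT0 and 21.5 ± 1.53 at ZT12 (SD, n = 4 and 5). The Rag GTPases that carry the amino acid signal had estimates near 0 in control mice, -0.03 (SE 0.12) for *Rraga* and 0.05 (SE 0.08) for *Rragc*, as had *Lamtor1*, their lysosomal anchor, with 0.02 (SE 0.10). Genes of the inhibitory GATOR1 complex had -0.11 (SE 0.11, *Depdc5*) and 0.16 (SE 0.14, *Nprl2*), *Wdr59* of GATOR2 -0.24 (SE 0.14), and the sestrins, which report amino acid shortage and stress, -0.02 (SE 0.11, *Sesn1*), 0.15 (SE 0.16, *Sesn2*) and -0.40 (SE 0.26, *Sesn3*). None of these passed the test.

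Of 16 upstream kinases and factors of TSC regulation none was called in any comparison by edgeR's quasi-likelihood test or by DESeq2, with 2 at an unadjusted p under 0.05 in control mice (18.1% of all genes) and 3 in knockout mice (8.01%). *Tbc1d7*, the third subunit of the TSC complex, had a log2 fold change of -0.31 (SE 0.21) in control mice, whereas *Akt1* (-0.04, SE 0.10), *Stk11*, which encodes Lkb1 (0.02, SE 0.08), and *Prkaa1*, a catalytic subunit of AMPK (-0.14, SE 0.13), had smaller estimates.

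Of 21 effectors of the complexes 1 was called higher and 1 lower in control mice, against 0.948% and 0.78% of all genes. DESeq2 called 5 (8.5% of all genes it could adjust), these 2 with *Eif4b*, *Larp1* and *Prkca*. At an unadjusted p under 0.05 in edgeR's quasi-likelihood test 6 of 21 passed in control mice (18.1% of all genes) and 4 in knockout mice (8.01%). For the interaction the count was 9 of 21 (10.8% of all genes), with no call by either tool. *Lpin1*, which encodes lipin-1, a phosphatidate phosphatase and a substrate of complex 1, fell from 32.1 ± 3.67 to 18.2 ± 4.16 CPM (SD, n = 6 each), with no overlap between the groups (log2 fold change -0.82, SE 0.15, adjusted p = 0.0107, edgeR's quasi-likelihood test). *Rps6*, a ribosomal protein gene whose product lies downstream of complex 1, rose from 239 ± 11.1 to 393 ± 115 CPM, also without overlap (log2 fold change 0.72, SE 0.15, adjusted p = 0.0212, edgeR's quasi-likelihood test). Control groups did not overlap in 1.6% of all genes tested. *Lpin1* has 9665 bases of exon and *Rps6* 1586, and the part of gene length in these calls was not tested. Reads of *Rps6* can be shared with its processed pseudogenes, so its level is uncertain. In knockout mice the log2 fold changes were -0.23 (SE 0.17) for *Lpin1* and 0.12 (SE 0.17) for *Rps6*, and neither was called. Not called in either genotype were the kinase *Ulk1*, which starts autophagy (-0.39, SE 0.13, in control and 0.07, SE 0.15, in knockout mice), the lysosomal transcription factor *Tfeb* (0.05, SE 0.13, and -0.40, SE 0.15), the S6 kinase *Rps6kb1* (-0.09, SE 0.09, and -0.01, SE 0.10), the cap-binding factor *Eif4e* (-0.03, SE 0.09, and -0.03, SE 0.11) and *Eif4ebp2*, a relative of *Eif4ebp1* (-0.22, SE 0.12, and 0.24, SE 0.14).

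*Ddit4* is known to be induced by glucocorticoids, by hypoxia and by Atf4, and genes of these responses were set beside it. Of 6 glucocorticoid-inducible genes 1 was called in control mice (1.73% of all genes), *Fkbp5*, which encodes a chaperone of the receptor. At an unadjusted p under 0.05 in edgeR's quasi-likelihood test 3 of the 6 passed, 2 higher and 1 lower, against 18.1% of all genes. The median log2 fold change of this list was -0.10. In control mice *Fkbp5* rose from 15.4 to 27.5 CPM (log2 fold change 0.83, SE 0.20, adjusted p = 0.0414, edgeR's quasi-likelihood test). It was at 13.3 and 27.3 CPM in knockout mice, with a log2 fold change of 1.04 (SE 0.24) and an adjusted p of 0.263 in edgeR's quasi-likelihood test. The knockout groups did not overlap, as in 2.63% of all genes tested. DESeq2 called *Fkbp5* there (adjusted p = 0.017), as it did 0.319% of the genes it could adjust. *Tsc22d3*, which encodes Gilz, had 0.49 (SE 0.19) in control and -0.26 (SE 0.22) in knockout mice, and *Sgk1* -0.29 (SE 0.18) and 0.42 (SE 0.21). Of 6 hypoxia-inducible genes 1 was called in control mice (1.73% of all genes), *Vegfa*, an angiogenic factor. It alone passed at an unadjusted p under 0.05 in edgeR's quasi-likelihood test (18.1% of all genes). *Vegfa* had group means of 0.913 and 9.77 CPM and a range of 1.7 to 32.6 CPM among the mice of ZT12. Its log2 fold change was 3.40 (SE 0.79, adjusted p = 0.0414, edgeR's quasi-likelihood test), or 2.49 without replicate 2 of ZT12. In knockout mice it was -1.59 (SE 0.85), or -0.50 without replicate 3 of ZT0. The interaction of -4.99 (SE 1.16) was not called by edgeR's quasi-likelihood test (adjusted p = 0.442). DESeq2 called it (adjusted p = 0.0177), as it did 0.0279% of the genes it could adjust. *Bnip3*, another gene of this list, had a log2 fold change of 0.00 (SE 0.37) in control mice. Of 10 genes in the list of Atf4 targets 1 was called in control mice (1.73% of all genes), *Shmt2*, an enzyme of mitochondrial serine metabolism. At an unadjusted p under 0.05 in edgeR's quasi-likelihood test 3 of the 10 passed, all higher, against 18.1% of all genes. *Shmt2* rose from 94.7 to 128 CPM (log2 fold change 0.44, SE 0.11, adjusted p = 0.0469, edgeR's quasi-likelihood test). *Atf4* itself had 0.33 (SE 0.13, adjusted p = 0.19, edgeR's quasi-likelihood test) and *Asns* 0.21 (SE 0.17) and neither was called.

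Across the 21 mice, the genes of most like pattern were found by Pearson's r of log2 CPM among 6935 genes with a mean log2 CPM over 3. For *Rictor* they were *Xylt1* (r = 0.932), *Kmt2a* (0.925), *Wnk1* (0.922), *Fryl* (0.918) and *Abca2* (0.915). For *Rptor* they were *Wdr48* (0.947), *Tcf20* (0.93), *Usp47* (0.93), *Lrrc8c* (0.929) and *Antxr2* (0.924). These 10 genes have 6655 to 22825 bases of exon, and all points come from the libraries whose composition is described above. For *Ddit4* the highest values were lower, with *Dok3* (r = 0.739), *Grina* (0.736), *Sf3b1* (0.729), *mt-Co2* (0.698) and *Map1lc3b* (0.687).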

How the data were processed

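Poly-A libraries of sorted IgA+ PCs were sequenced with paired reads of 150 bases. The authors deposited whole-number counts of reads per gene, without normalization, for 21 samples, each taken as 1 mouse. The aligner, the counter and the use of strand are not given in the sources used here, and the submitters' processing notes name DESeq and DESeq2. The build was taken as GRCm38, since 52019 of the 53620 genes matched to GENCODE M21 have the same coordinates.

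The genes, lists and tests were chosen with earlier results of these data known. All 10 mTOR genes are named, with a set part of each list (1 gene of it is not reported here), the called genes of each list (at most 3 a direction) and the 5 genes of most like pattern. *Pecam1* was named after its values were seen.

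The test kept genes whose counts summed to 10 or more over all mice. TMM factors were computed, and edgeR 4.0.16 (R 4.3.3, robust quasi-likelihood) was fitted to the means of the 4 groups over all 21 mice. Within each of 5 comparisons, the Benjamini-Hochberg adjustment ran over every tested gene, and a gene was called at an adjusted p under 0.05. The same steps were tested on simulated data, and no result of that test is given here. Standard errors of log2 fold changes were derived from edgeR's quasi-likelihood test, as the absolute estimate divided by the square root of its F statistic. The log2 CPM values had a prior count of 2. Exact permutation tests were two-sided. Intervals are 95% Wilson limits and cover counting error only, as the reads carry no molecular identifiers. Replicate numbers do not pair the mice.

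The alternatives were DESeq2 1.42.0 or its size factors, scaling by library size only, a table without immunoglobulin genes, either no filter on counts or filterByExpr, calls at 0.01, a fit to the groups compared alone, a block for the replicate number, a covariate (immunoglobulin share, mean level of epithelial markers or *Xist* level), removal of the trend on gene length (lowess, span 0.5, genes with a mean log2 CPM over 3), and each of the 21 libraries left out. Leaving out the 4 libraries with an immunoglobulin share over 59% was added after the data were seen.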

Additional observations from a re-analysis of the deposited data

Results flagged for a closer look

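In each of the 40 sets of values, 10 genes in 4 groups, the highest or lowest mouse was compared with the others of its group by Dixon's ratio of gap to range, which flags about 1 in 20 sets by chance, and 4 were flagged. *Eif4ebp1* was at 26.3 CPM in control ZT12 replicate 2, the library with the highest immunoglobulin share (63.6%), where the other 5 mice of the group had at most 12.3 CPM. It was at 15.0 CPM in knockout ZT0 replicate 2, where the other 3 mice had 8.57 to 8.80 CPM. *Tsc2* was at 36.9 CPM in knockout ZT12 replicate 5, against at most 32.7 CPM in the other 4 mice. *Rheb* was at 52.3 CPM in knockout ZT12 replicate 2, against at most 46.9 CPM in the other 4.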

How the results depend on the processing

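*Rictor* and *Rptor* were called in 8 and *Tsc1* in 9 of 13 alternatives other than those that left out 1 library, with adjusted p from 0.0126 to 0.657, from 0.00771 to 0.638 and from 0.00254 to 0.528. The number of the 10 genes called in control mice was 0 in a fit to the control mice alone, with the immunoglobulin share or the epithelial markers as a covariate, without the 4 libraries of high immunoglobulin share, and at a threshold of 0.01, and it ran from 0 to 3 with 1 library left out. The cause was not tested.

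For all genes in control mice, 350 were called, and DESeq2 called 1052, the fit to the control mice alone 38, the replicate block 183, the immunoglobulin share as a covariate 0, the epithelial markers as a covariate 60, the fit without the 4 libraries 12 and the threshold of 0.01 14. With 1 library left out the number ran from 31 (without control ZT0 replicate 2) to 944 (without control ZT12 replicate 1). In knockout mice DESeq2 called 47 genes, no count filter 1, the immunoglobulin share 1 and the fit without the 4 libraries 3, with 0 to 1 when 1 library was left out. In the interaction DESeq2 called 4 and the fit without the length trend 1, with 0 to 1 when 1 library was left out. Between genotypes DESeq2 called 5 and the fit without the length trend 4 genes at ZT0, and DESeq2 called 8 at ZT12. With library size only, the median of all genes in control mice was -0.20 on the log2 scale, and 398 genes were called lower and 48 higher, against 158 and 192 with TMM factors, while the estimates of *Rictor*, *Rptor* and *Tsc1* were -0.70, -0.67 and -0.70.

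The replicate numbers do not pair the mice (correlation of deviations from -0.248 to 0.237 over 10 pairs, over 0.1 in 3), and the replicate block called 2 of the 10 genes in control mice, *Rictor* and *Tsc1*, and turned the interaction of *Ddit4* to 0.0091.

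Some estimates of genes that were not called changed sign. In control mice, the immunoglobulin share as a covariate gave 0.062 for *Mtor*, 0.13 for *Mlst8*, 0.30 for *Deptor* and 0.015 for *Tsc2*, and the fit without the 4 libraries gave 0.018 for *Mtor* and 0.13 for *Mlst8*. Without the length trend *Deptor* was 0.023 and *Rheb* 0.10, and *Rheb* was 0.0040 with DESeq2, 0.0048 with its size factors, 0.019 with the epithelial covariate and -0.060 to 0.027 with 1 library left out. In knockout mice, the epithelial covariate gave 0.018 for *Rptor* and -0.016 for *Tsc2*, the fit without the length trend gave -0.0090 for *Tsc2*, and the fit without the 4 libraries gave -0.00080 for *Tsc2* and 0.015 for *Rheb*. With 1 library left out, *Rictor* ran from -0.15 to 0.019, *Rptor* from -0.12 to 0.040, *Mlst8* from -0.18 to 0.023, *Tsc1* from -0.18 to 0.024, *Tsc2* from -0.0017 to 0.093 and *Rheb* from -0.10 to 0.019.

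In the interaction, library size only gave 0.17 for *Rheb* and 0.15 for *Ddit4*, and the immunoglobulin share as a covariate gave -0.25 for *Mlst8*, 0.067 for *Rheb*, 0.057 for *Eif4ebp1* and 0.15 for *Ddit4*. The fit without the 4 libraries gave -0.26 for *Mlst8*, 0.071 for *Rheb* and 0.16 for *Ddit4*, and that without the length trend 0.14 for *Ddit4*. With 1 library left out, *Mlst8* ran from -0.086 to 0.15, *Rheb* from -0.084 to 0.039 and *Ddit4* from -0.12 to 0.064. Between genotypes at ZT0, *Tsc2* was 0.053 with the immunoglobulin share as a covariate and 0.014 without the length trend. At ZT12, *Eif4ebp1* was 0.044 with library size only, 0.14 with the immunoglobulin share, 0.19 without the 4 libraries and -0.24 to 0.18 with 1 library left out, *Ddit4* was 0.011 with library size only and 0.13 without the 4 libraries, and *Mlst8* was -0.088 without the 4 libraries. The genotype difference of *Arntl* at ZT12 ran from -0.32 to -0.15 with 1 library left out, and the change of the immunoglobulin share in knockout mice from -0.953 to 1.00 percentage points, the latter without knockout ZT0 replicate 3.

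*Deptor* (6 to 66 counts per library) and *Mlst8* (33 to 140) had the fewest counts of the 10 genes.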
